A study of Bos taurus with 64 samples.

Results

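bta-miR-1 and bta-miR-206 are the muscle microRNAs (miRNAs) of the miR-1 family, and their levels are described here across breed, diet and feed efficiency in cattle muscle. Both were taken by name from a table of 1030 bovine miRNA names, so the family is 2 of 1030 names, and both were among the 318 miRNAs with enough counts to be tested. The species prefix bta is left out below.

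The libraries came from skeletal muscle of Charolais steers, a beef breed, and Holstein-Friesian steers, a dairy breed. All steers ate zero-grazed grass (fresh, cut ryegrass herbage) in a first phase of 70 days and, after 14 days of acclimatisation, a barley-based high-concentrate diet with limited grass silage in a second phase of 70 days. Intake was recorded in 90 Charolais and 77 Holstein-Friesian steers, and muscle was sampled at the end of each phase from steers of low or high residual feed intake (RFI). RFI is the feed an animal eats above or below that predicted for its size and growth, so a low-RFI steer is the more efficient. The 8 groups, each of 8 libraries, were low-RFI and high-RFI steers of each breed on each diet. They held 59 animals, since 5 steers (4 Charolais and 1 Holstein-Friesian) gave a library in both phases. The sources used here give neither the steers' ages nor which muscle was sampled. Because every steer met the diets in the same order, diet cannot be told apart from phase, from the age of the steers or from how each phase was processed.

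miR-1 and miR-206 are small RNAs that bind messenger RNAs and lower their output. They share a seed, the bases that pair with targets, and are known as myomiRs because their expression is largely restricted to muscle. Both promote the passage of myoblasts from division to differentiation. miR-1 is known from heart and skeletal muscle, and miR-206 from skeletal muscle alone, where it is linked to satellite cells, to regenerating fibres and to slow fibres. The genes of the family lie beside those of another muscle family: miR-1 is made with miR-133a, and miR-206 with miR-133b. In the RefSeq gene table of ARS-UCD2.0, which is not the build of the counts and was used for names and neighbours only, miR-1 had 2 genes and miR-206 had 1. MIR1-1 neighboured MIR133A-1, MIR1-2 neighboured MIR133A-2 and MIR206 neighboured MIR133B, with 0 other gene starts inside each pair.

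Total counts per library ran from 4795936 to 12245101 (median 8143018.5). miR-10b took between 19.3% and 74.5% of the counts of a library (median 56.6%). For this reason levels are given as CPM, counts brought to one common library size, here with TMM factors, which set the scale from the bulk of the miRNAs and not from the few most abundant. TMM factors ran from 0.511 to 2.43, and 3 libraries stood apart from the rest: high-RFI Holstein-Friesian grass replicate 1 (2.43), low-RFI Charolais grass replicate 5 (1.88) and low-RFI Holstein-Friesian concentrate replicate 3 (0.511). For calls of miR-1 and miR-206 in the main fit, the values without these 3 are given beside them. Calls of other miRNAs carry no such value.

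The tissue label was checked against the muscle miRNAs. miR-486, miR-133a and miR-133b were the names at ranks 2, 3 and 9 of the table by mean CPM, with 104820, 74311 and 8983 CPM. Of the miRNAs listed for other tissues, some were near 0. miR-122 of liver averaged 0.0495 CPM, and miR-200a, miR-200b and miR-200c of epithelium averaged 0.0479, 0.0268 and 0.119 CPM. The liver list also held miR-192 and miR-885, at 518 and 23.3 CPM. The epithelium list also held miR-141 and miR-205, at 2.20 and 0.449 CPM.

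miR-1 had the higher deposited counts of the family, and neither member was among the muscle miRNAs counted most. The labels and notes do not tell how reads were assigned to each name, so ranks and ratios between names describe the deposited counts, which may not follow the abundance of the molecules. miR-1 averaged 247 CPM ± 77.0 (SD, n = 64) and held rank 69 of the 1030 names. Its lowest library was at 106 CPM, the median at 240 and the highest at 438. miR-206 averaged 14.6 CPM ± 8.53 (SD, n = 64) and held rank 158, with a lowest library at 3.65 CPM, a median of 11.3 and a highest at 39.1. Mature miRNAs are of nearly equal length, so these CPM levels were compared between names with no length term. On that scale miR-1 was at 17.0 times the mean of miR-206.

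The miRNAs made beside them were counted far more often. miR-133a stood at 301 times the mean CPM of miR-1, and miR-133b at 617 times that of miR-206, although each pair is made from the same gene cluster. Whether counting or library preparation had a part in these ratios was not tested. The miRNAs encoded within myosin genes, miR-208b and miR-499, were nearer to miR-1, at 825 and 346 CPM. miR-208a, which sits in a cardiac myosin gene, averaged 1.51 CPM in Charolais and 0.891 CPM in Holstein-Friesian steers and was at 0 in 1 library. The levels of the muscle miRNAs spanned several orders of magnitude and their order was the same in both breeds and on both diets for the 7 miRNAs plotted, by medians.

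**Figure D1:**
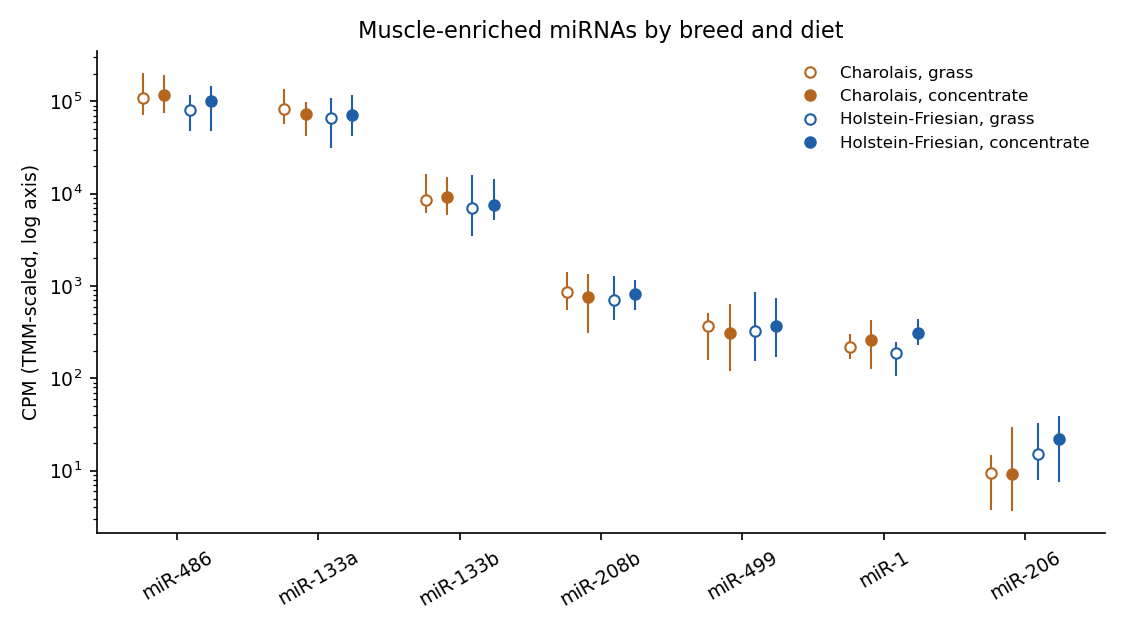
CPM (TMM-scaled, log axis) of 7 muscle-enriched miRNAs in Charolais and Holstein-Friesian libraries on grass (open circles) and concentrate (filled circles); circles are medians and lines run from the lowest to the highest of 16 libraries. miR-1 lies near miR-499, and miR-206 is the lowest of the 7.

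The counts behind these levels differed in depth. A library held between 792 and 5105.5 counts of miR-1 (median 1991.75) and between 17 and 372 of miR-206 (median 109.5). miR-1 had a fraction of 0.5 in 36 of 64 libraries, and miR-206 had whole counts in all 64. Counting error alone corresponds to a coefficient of variation of 1.89% to 2.51% for miR-1 by group. The spread between steers of a group was wider, from 15.1% to 33.6%. For miR-206 counting error was 7.51% to 12.4% and the spread between steers 21.7% to 59.0%. The spread within a group was thus wider than counting error for both members. Differences between steers cannot be told apart in it from those of preparation and scaling. In the fitted model the biological coefficient of variation, the part of the spread beyond counting, was 0.258 for miR-1 and 0.42 for miR-206, against a median of 0.27 over the 318 tested miRNAs. miR-206 was the more variable member and ranked 278 of 318 from the least to the most variable.

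**Figure D2:**
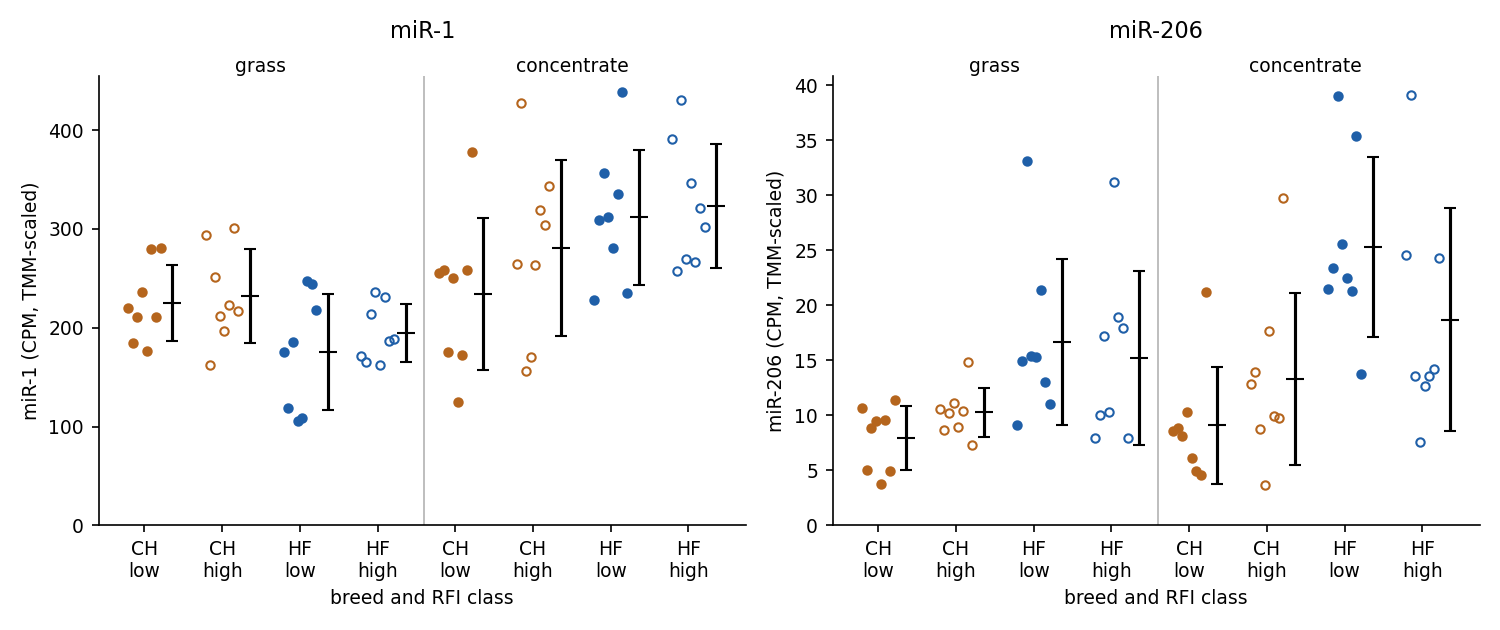
CPM (TMM-scaled) of miR-1 and miR-206 in every library by breed (CH, Charolais; HF, Holstein-Friesian), RFI class and diet; circles are libraries (filled, low RFI; open, high RFI) and bars are mean ± SD of 8 libraries. For miR-1 all 16 Holstein-Friesian concentrate libraries lie above the Holstein-Friesian grass median, and for miR-206 the low-RFI Holstein-Friesian concentrate libraries are the highest group.

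The order of the 8 group means differed between the members. For miR-1 the lowest group was low-RFI Holstein-Friesian on grass, at 175 CPM ± 58.9 (SD, n = 8). It was followed by high-RFI Holstein-Friesian on grass (194 ± 29.4), low-RFI Charolais on grass (225 ± 38.8) and high-RFI Charolais on grass (232 ± 47.4). The concentrate groups came next, as low-RFI Charolais (234 ± 77.3), high-RFI Charolais (281 ± 89.2), low-RFI Holstein-Friesian (312 ± 68.1) and high-RFI Holstein-Friesian (323 ± 62.6). With TMM factors the means of miR-1 were thus ordered by diet, with the Holstein-Friesian groups at both ends. The step between the diets, within Charolais, was 2.2 CPM. Without TMM factors the medians were not ordered by diet. Low-RFI Charolais on concentrate (214 CPM) then lay below high-RFI Charolais (239) and high-RFI Holstein-Friesian (241) on grass.

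For miR-206 all 4 Charolais groups lay below all 4 Holstein-Friesian groups. The Charolais means were 7.95 CPM ± 2.94 (low RFI, grass), 9.09 ± 5.29 (low RFI, concentrate), 10.3 ± 2.22 (high RFI, grass) and 13.3 ± 7.82 (high RFI, concentrate). The Holstein-Friesian means were 15.2 ± 7.90 (high RFI, grass), 16.7 ± 7.56 (low RFI, grass), 18.7 ± 10.1 (high RFI, concentrate) and 25.3 ± 8.15 (low RFI, concentrate), each with n = 8 and SD. In both orders the gap between neighbouring means was smaller than the larger SD of the pair at every step, so neighbours did not differ beyond their spread.

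miR-206 differed by breed. In Charolais libraries miR-206 ran from 3.65 to 29.7 CPM with a median of 9.53, and in Holstein-Friesian libraries from 7.54 to 39.1 with a median of 16.3. The ranges overlapped, but 28 of 32 Holstein-Friesian libraries were above the Charolais median and 8 Charolais libraries were below the lowest Holstein-Friesian one. The mean was 19.0 CPM ± 8.97 in Holstein-Friesian against 10.1 ± 5.22 in Charolais steers (SD, n = 32 each). Averaged over diet and RFI, the Holstein-Friesian level of miR-206 was 1.86-fold that of Charolais (log2 difference 0.89 ± 0.16 SE, edgeR's quasi-likelihood test, adjusted p = 6.37e-05). Of the 318 miRNAs tested 21.7% differed by breed at an adjusted p of 0.05, and miR-206 was the second of them by p and the fifth by size. Where no other tool is named, an adjusted p below comes from this edgeR fit, with Benjamini-Hochberg adjustment over the 318 miRNAs of a comparison. Without the 3 libraries that stood apart the log2 difference was 0.86 (adjusted p = 0.000172).

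The breed difference in miR-206 was seen on both diets. On grass Charolais libraries ran from 3.72 to 14.8 CPM (median 9.53) and Holstein-Friesian libraries from 7.92 to 33.1 (median 15.1). On this diet 9 of 16 Holstein-Friesian libraries were above the highest Charolais library and 13 of 16 above the Charolais median. The log2 difference was 0.81 ± 0.22 SE (1.75-fold, adjusted p = 0.00424), on a diet where 29.9% of tested miRNAs differed by breed. It was 0.84 without the 3 libraries (adjusted p = 0.0028).

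On concentrate the medians were 9.28 CPM in Charolais libraries (3.65 to 29.7) and 22.0 in Holstein-Friesian libraries (7.54 to 39.1), and 15 of 16 Holstein-Friesian libraries were above the Charolais median. The log2 difference was 0.97 ± 0.22 SE (1.97-fold, adjusted p = 0.00489). Only 1.57% of tested miRNAs, 5 in number, differed by breed on concentrate, and miR-206 was the third of the 318 by p. It was 0.88 without the 3 libraries (adjusted p = 0.0138). With the 5 steers that were sampled on both diets kept only on grass, it was 0.85 and no longer passed (adjusted p = 0.0764). The breed difference on concentrate minus that on grass was 0.16 ± 0.31 SE (95% interval -0.45 to 0.78, adjusted p = 0.749).

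The breeds were farthest apart in low-RFI steers on concentrate. There Charolais libraries had miR-206 at 4.61 to 21.2 CPM (median 8.35) and Holstein-Friesian libraries at 13.8 to 39.0 (median 22.9). In this pair of groups 7 of 8 Holstein-Friesian libraries exceeded the highest Charolais library. Among high-RFI steers on concentrate the ranges overlapped more, from 3.65 to 29.7 in Charolais and from 7.54 to 39.1 in Holstein-Friesian libraries, and 1 of 8 Holstein-Friesian libraries exceeded the highest Charolais library. There 7 of 8 were above the Charolais median, and the ratio of the means was 1.41, against 2.78 in low-RFI steers. These pairs were not fixed as separate comparisons, and the difference between RFI classes is tested below with the other RFI comparisons.

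miR-1 showed no breed difference when averaged over diets. Charolais libraries ran from 125 to 427 CPM (median 243) and Holstein-Friesian libraries from 106 to 438 (median 240), and 16 of 32 Holstein-Friesian libraries lay above the Charolais median. The log2 difference was 0.00 ± 0.10 SE with a 95% interval of -0.20 to 0.20 (adjusted p = 1.00). The SE was derived from the difference and its test statistic and is inexact this close to 0. This average joined values of opposite sign on grass and on concentrate. On grass Holstein-Friesian libraries averaged 185 CPM ± 46.0 against 228 ± 42.0 in Charolais (SD, n = 16 each). That log2 difference was -0.31 ± 0.13 SE and missed the threshold (adjusted p = 0.0604), while it passed with animal as a random block (-0.32, adjusted p = 0.0482, limma) and with limma-voom (-0.33, adjusted p = 0.0462). In the other 10 of 12 alternatives it was not called. Over the 12 it ran from -0.33 to -0.14 and the adjusted p from 0.0462 to 0.551. On concentrate Holstein-Friesian libraries averaged 317 ± 63.4 against 258 ± 84.2, a log2 difference of 0.31 ± 0.13 SE (adjusted p = 0.249).

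The breed difference in miR-1 on concentrate minus that on grass was 0.61 ± 0.18 SE (95% interval 0.26 to 0.97, adjusted p = 0.0377). Of the tested miRNAs 3.46% passed in this comparison, and miR-1, at rank 11 by p, was the last of the 11 that did. With each of the 64 libraries left out in turn, the difference ran from 0.53 to 0.68 and the adjusted p from 0.0119 to 0.0904. The call depended on single libraries: it was lost on leaving out any 1 of 24 of the 64. It was also lost in 7 of 11 alternatives: with total-count scaling (0.47, adjusted p = 0.368), RLE factors, upper-quartile scaling, DESeq2 and no filter on low counts, with the repeated steers' concentrate libraries left out, and without the 3 libraries that stood apart (0.54, adjusted p = 0.0723). Over the 11 the adjusted p ran from 0.00935 to 0.368.

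**Figure D3:**
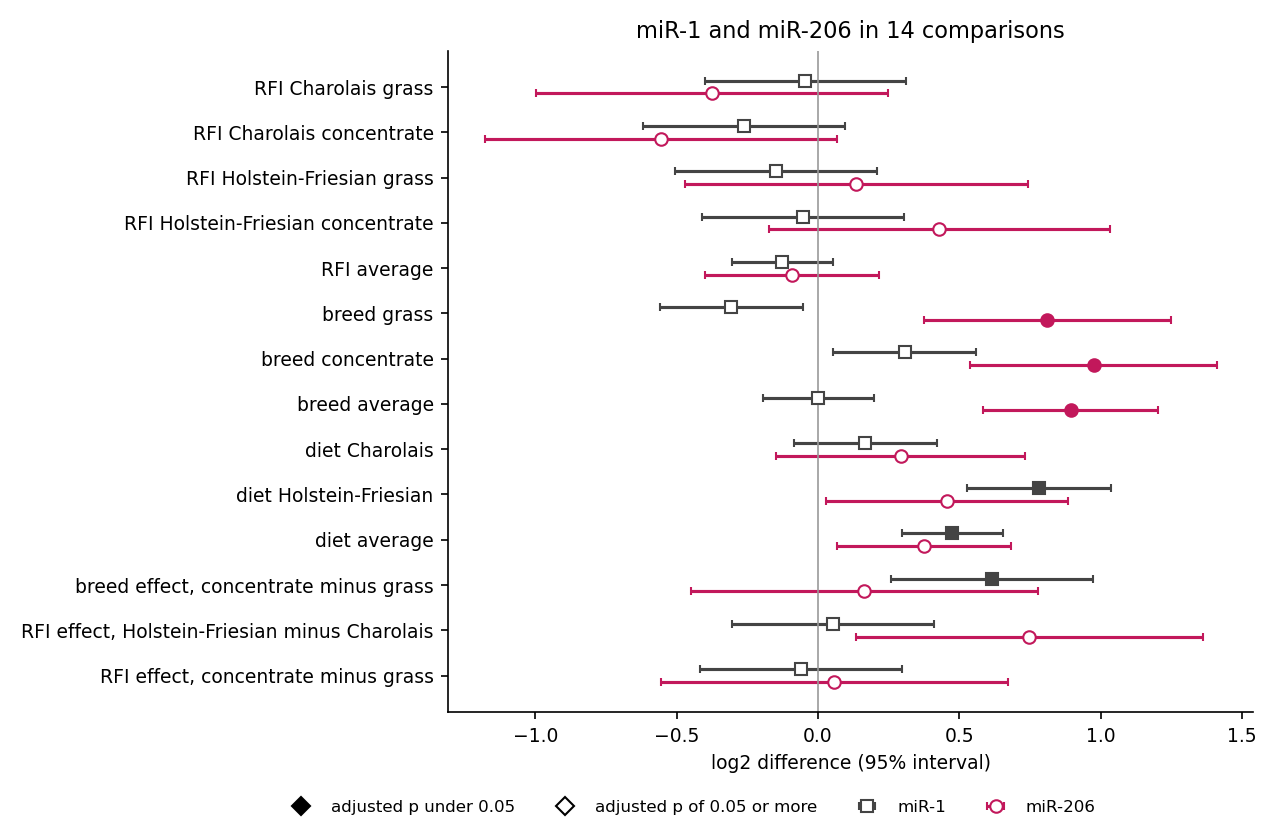
Log2 differences of miR-1 (squares) and miR-206 (circles) with 95% intervals in the 14 comparisons; RFI is low minus high, diet is concentrate minus grass and breed is Holstein-Friesian minus Charolais, and filled symbols have an adjusted p under 0.05. miR-206 passed in the 3 breed comparisons, and miR-1 in the diet comparison of Holstein-Friesian steers, the diet average and the diet effect on the breed difference.

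miR-1 differed by diet in Holstein-Friesian steers. On grass these libraries ran from 106 to 247 CPM (median 186) and on concentrate from 228 to 438 (median 310). All 16 concentrate libraries were above the grass median and 14 of 16 were above the highest grass library. The mean was 317 CPM ± 63.4 on concentrate against 185 ± 46.0 on grass (SD, n = 16 each). miR-1 was 1.72-fold higher on concentrate (log2 difference 0.78 ± 0.13 SE, adjusted p = 2.68e-06), and 24.2% of tested miRNAs differed by diet in this breed. Without the 3 libraries the log2 difference was 0.75 (adjusted p = 7.24e-06).

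Both RFI classes of Holstein-Friesian steers took part in that difference. In high-RFI steers miR-1 ran from 162 to 236 CPM on grass (median 188) and from 258 to 430 on concentrate (median 312), and the groups did not overlap: all 8 concentrate libraries were above all 8 grass libraries. Of the 318 tested miRNAs 0.629% (2) were higher on concentrate without overlap in these steers. Without TMM factors the groups did overlap: grass replicate 1, whose factor was 2.43, was then at 417 and the highest concentrate library at 383, and all 8 concentrate libraries were above the grass median. In low-RFI steers the ranges were 106 to 247 (median 180) and 228 to 438 (median 310), and 6 of 8 concentrate libraries were above the highest grass library.

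In Charolais steers miR-1 ran from 162 to 301 CPM on grass (median 218) and from 125 to 427 on concentrate (median 258). The concentrate libraries spread over both sides of the grass range, with 2 of 16 below its lowest value and 5 of 16 above its highest. The log2 difference was 0.17 ± 0.13 SE (95% interval -0.09 to 0.42, adjusted p = 0.373), in a breed where 20.8% of tested miRNAs differed by diet. Averaged over breeds miR-1 was 1.39-fold higher on concentrate (0.47 ± 0.09 SE, adjusted p = 2.99e-05), above the grass median in 27 of 32 libraries, in a comparison in which 34% of tested miRNAs passed. It was 0.47 without the 3 libraries as well (adjusted p = 2.97e-05).

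The diet values of miR-1 depended on the scaling. With total counts in place of TMM factors the median of all tested miRNAs moved by -0.32 in Holstein-Friesian steers and by -0.26 averaged over breeds. On that scale miR-1 was at 0.45 in Holstein-Friesian steers (adjusted p = 0.0221), 0.21 averaged over breeds (adjusted p = 0.101) and -0.02 in Charolais steers. Of 16 Holstein-Friesian concentrate libraries 14 were then above the grass median and 0 above the highest grass library. Total-count scaling also changed the balance of diet calls averaged over breeds, from 57 higher and 51 lower to 7 higher and 118 lower. In Holstein-Friesian steers the split went from 34 higher and 43 lower to 6 higher and 88 lower, and in Charolais steers from 30 and 36 to 2 and 40. For breed it went from 47 higher and 48 lower to 47 and 3 on grass, from 3 and 2 to 2 and 0 on concentrate, and from 35 and 34 to 37 and 3 on average. The breed difference of miR-206 was 0.98 on that scale when averaged (adjusted p = 2.52e-05).

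miR-206 did not pass for diet. In Holstein-Friesian steers its median was 15.1 CPM on grass and 22.0 on concentrate, with overlapping ranges, and 10 of 16 concentrate libraries were above the grass median. The log2 difference was 0.46 ± 0.22 SE (95% interval 0.03 to 0.88, adjusted p = 0.117), and with animal as a random block it was 0.54 and passed (adjusted p = 0.0461, limma). In the other 11 of 12 alternatives it was not called. Over the 12 it ran from 0.14 to 0.54 and the adjusted p from 0.0461 to 0.667. On total counts 7 of 16 concentrate libraries were above the grass median. In Charolais steers the medians were 9.53 on grass and 9.28 on concentrate, and the log2 difference was 0.29 ± 0.22 SE (adjusted p = 0.373). The average over breeds, 0.37 ± 0.16 SE, lay close to the threshold (adjusted p = 0.0558). It passed in 5 of 11 alternatives. Over the 11 the log2 difference ran from 0.16 to 0.43 and the adjusted p from 0.0288 to 0.449.

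The 5 steers sampled in both phases gave the diet difference within animals. In the Holstein-Friesian steer, whose grass library was high-RFI replicate 1 with the TMM factor of 2.43, miR-1 went from 171 CPM on grass to 391 on concentrate and miR-206 from 7.92 to 24.6. In the 4 Charolais steers miR-1 went from 162 to 175, from 236 to 250, from 217 to 304 and from 294 to 427 CPM. miR-1 was thus higher on concentrate in 5 of 5 steers with TMM factors, but in 2 of 5 on total counts. miR-206 went from 8.69 to 8.14, from 9.47 to 10.3, from 7.34 to 9.74 and from 10.6 to 13.9 in the same Charolais steers, in the same order. It was higher on concentrate in 4 of 5 steers with TMM factors and in 2 of 5 on total counts. In the Holstein-Friesian steer both members were lower on concentrate on total counts, miR-1 at 282 against 417 and miR-206 at 17.7 against 19.3. The first of these Charolais steers was of high RFI on grass and of low RFI on concentrate, and the rest kept their class.

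Neither member passed for RFI class in any comparison. In Charolais steers on grass miR-206 ran from 3.72 to 11.4 CPM (median 9.14) in low-RFI and from 7.34 to 14.8 (median 10.3) in high-RFI libraries. On concentrate it ran from 4.61 to 21.2 (median 8.35) in low-RFI and from 3.65 to 29.7 (median 11.4) in high-RFI libraries. The log2 differences, low minus high RFI, were -0.37 ± 0.32 SE on grass (adjusted p = 0.861) and -0.56 ± 0.32 SE on concentrate (adjusted p = 0.862). In Holstein-Friesian steers the low-RFI libraries were the higher ones: their median was 15.1 against 13.8 CPM on grass and 22.9 against 13.9 on concentrate. The log2 differences there were 0.13 ± 0.31 SE (adjusted p = 0.997) and 0.43 ± 0.31 SE (adjusted p = 0.631). The value on grass turned to -0.02 without the 3 libraries that stood apart. Averaged over breeds and diets the difference was -0.09 ± 0.16 SE (95% interval -0.40 to 0.21, adjusted p = 1.00). In each of these 5 comparisons 0% of tested miRNAs passed, and between 10 and 34 of the 318 were under 0.05 before adjustment. By DESeq2, and likewise by limma-voom, 0 were called.

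The RFI difference of miR-206 had opposite signs in the breeds. That in Holstein-Friesian minus that in Charolais steers was 0.75 ± 0.31 SE (95% interval 0.13 to 1.36, unadjusted p = 0.0201 from edgeR). miR-206 was at rank 10 by p, and the adjusted p was 0.485. No miRNA passed in this comparison (0%), 32 had an unadjusted p under 0.05, and DESeq2 and limma-voom called 0. Over 11 alternatives the adjusted p of miR-206 ran from 0.0784 to 0.713 and the difference from 0.56 to 0.97.

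For miR-1 the low-RFI libraries were on average 0.13 ± 0.09 SE lower on the log2 scale (95% interval -0.31 to 0.05, adjusted p = 1.00). The 4 differences within a breed and diet were -0.04 and -0.26 in Charolais and -0.15 and -0.05 in Holstein-Friesian steers, on grass and on concentrate. Its widest gap was in Charolais steers on concentrate, where 7 of 8 low-RFI libraries were below the high-RFI median of 284 CPM (adjusted p = 0.878). The RFI difference in Holstein-Friesian minus Charolais steers was 0.05 ± 0.18 SE for miR-1. The RFI difference on concentrate minus grass was -0.06 ± 0.18 SE for miR-1 and 0.06 ± 0.31 SE for miR-206, with 0% of miRNAs called and 14 at an unadjusted p under 0.05 (0 by DESeq2 and by limma-voom).

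Since both members were counted in the same library, their ratio does not depend on the scaling. Over all libraries there were 4.92 counts of miR-206 per 100 of miR-1 at the median, from 1.79 to 19.2. The median ratio was 4.07 in Charolais and 7.80 in Holstein-Friesian libraries. The breeds were most distinct on grass, where the ratio ran from 2.10 to 5.35 per 100 in Charolais (median 4.07) and from 4.23 to 19.2 in Holstein-Friesian libraries (median 8.11). On grass all 16 Holstein-Friesian libraries were above the Charolais median and 10 of 16 above the highest Charolais library. On concentrate the medians were 3.77 and 6.96, and 13 of 16 Holstein-Friesian libraries were above the Charolais median. The ratio is given as a description, with no test. As the plot of the ratio by group shows, the low-RFI Holstein-Friesian grass libraries spread widely, from 5.06 to 17.9, while low-RFI Charolais grass libraries stayed between 2.10 and 4.84.

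**Figure D4:**
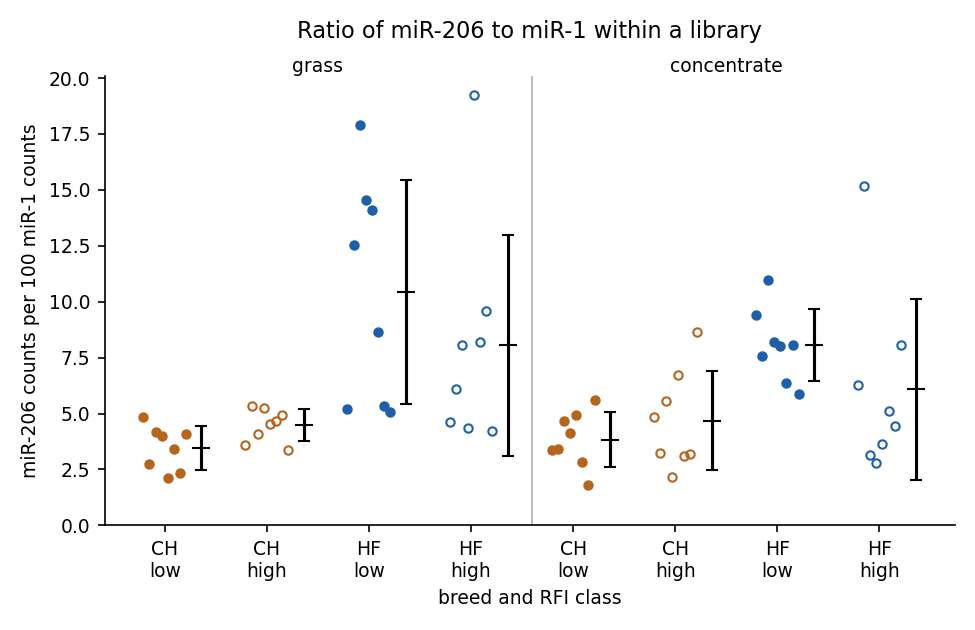
Counts of miR-206 per 100 counts of miR-1 in each library by breed (CH, Charolais; HF, Holstein-Friesian), RFI class and diet; circles are libraries (filled, low RFI; open, high RFI) and bars are mean ± SD of 8 libraries. Holstein-Friesian grass libraries reach 19.2, and the highest Charolais grass library is at 5.35.

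Within groups the members varied together in part. After the group means were removed from log2 CPM, miR-1 and miR-206 had Pearson's r = 0.417 (permutation adjusted p = 0.00186) and Spearman's rho = 0.41 (permutation adjusted p = 0.0027) over 64 libraries. Adjusted values cover 9 relations and come from 100000 resamples. Pearson's r was 0.407 without the 2 libraries farthest from the median of miR-1. It was 0.25 within grass and 0.528 within concentrate libraries, and 0.658 within Charolais and 0.133 within Holstein-Friesian libraries (n = 32 each). The libraries share a scaling step, and 5 animals enter with both of their libraries.

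miR-1 varied with miR-133a, which is made beside it, and also with miR-133b, which is not. Its deviations had r = 0.647 with those of miR-133a (permutation adjusted p = 4.5e-05; rho = 0.58, permutation adjusted p = 9e-05), and r was 0.604 without the 2 outermost libraries, 0.766 on grass, 0.55 on concentrate, 0.522 in Charolais and 0.784 in Holstein-Friesian libraries. With miR-133b, r was 0.587 (permutation adjusted p = 4.5e-05) and rho 0.56 (permutation adjusted p = 0.000135), and r was 0.555 without the 2 outermost libraries, 0.71 on grass, 0.484 on concentrate, 0.344 in Charolais and 0.81 in Holstein-Friesian libraries. Among the 317 other tested miRNAs miR-133a was at place 5 by r with miR-1, behind miR-378d, miR-378b, miR-30c and miR-1388-5p. The differences of r between breeds and between diets were not tested. These relations are between counts under each name. The part of read assignment between miR-133a and miR-133b in them was not tested. The raw p of both values of r, and of rho with miR-133a, was 1e-05, the smallest that the resamples can give.

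No such relation was detected for miR-206. Its deviations had r = -0.0278 with those of miR-133b, its neighbour (permutation adjusted p = 0.829; rho = -0.00572, permutation adjusted p = 0.966), and r was 0.0296 without the 2 outermost libraries, 0.109 on grass and -0.181 on concentrate. With miR-133a, r was -0.0447 (permutation adjusted p = 0.818; rho = -0.044, permutation adjusted p = 0.82), r without the 2 outermost libraries was 0.00723, and r was -0.0148 on grass and -0.0777 on concentrate. As it is unknown how reads were divided between miR-133a and miR-133b, counts under the name miR-133b may not follow the molecule made beside miR-206. Whether miR-206 varied with that molecule was therefore not tested by these values. The paired patterns are drawn in the plot of deviations.

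**Figure D5:**
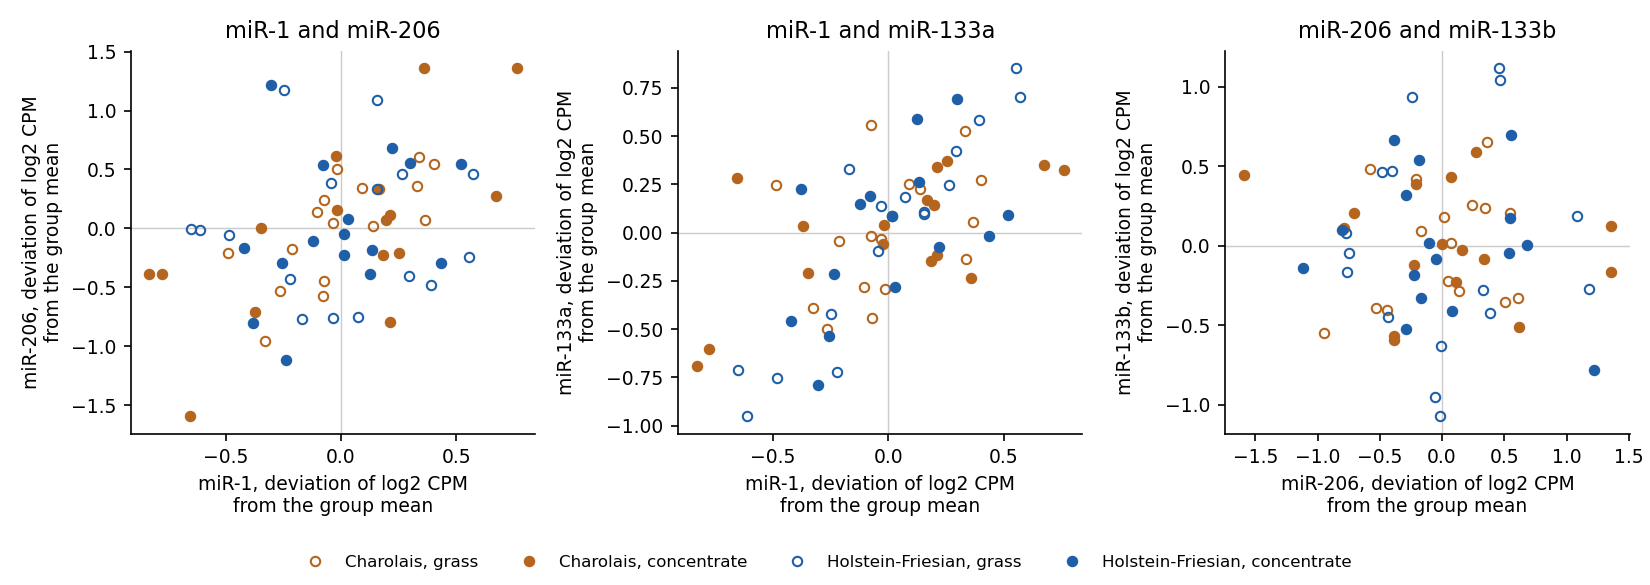
Deviations of log2 CPM from the group mean in 64 libraries for 3 pairs of miRNAs, by breed (colour) and diet (open, grass; filled, concentrate). The points of miR-1 and miR-133a lie along a rising line (r = 0.647), and those of miR-206 and miR-133b do not (r = -0.0278).

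Technical measures were set against the members as well. Library total and TMM factor both divide the counts in CPM, so a negative r can arise from the scaling alone. The permutation p does not allow for this. The log2 TMM factor had r = -0.399 with miR-1 (permutation adjusted p = 0.00207; rho = -0.399, permutation adjusted p = 0.0027), with r = -0.389 without the 2 outermost libraries, -0.42 on grass, -0.391 on concentrate, -0.181 in Charolais and -0.604 in Holstein-Friesian libraries. With miR-206 it had r = -0.287 (permutation adjusted p = 0.0395; rho = -0.26, permutation adjusted p = 0.0679), and r was -0.19 without the 2 outermost libraries, -0.418 on grass, -0.171 on concentrate, -0.184 in Charolais and -0.372 in Holstein-Friesian libraries. The part of the scaling in the relations of miR-1 with miR-206, miR-133a and miR-133b was not tested. The log2 library total had r = -0.19 with miR-1 (permutation adjusted p = 0.198; rho = -0.127, permutation adjusted p = 0.412) and -0.112 with miR-206 (permutation adjusted p = 0.488; rho = -0.138, permutation adjusted p = 0.412). Without the 2 outermost libraries these values of r were -0.105 and -0.0525, on grass -0.24 and -0.384, and on concentrate -0.145 and 0.167.

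The miRNAs most like each member were found over the same 64 deviations among the other 317 tested, as a description. For miR-1 they were miR-378d (r = 0.77), miR-378b (0.735), miR-30c (0.718), miR-1388-5p (0.672) and miR-133a (0.647). The first known member of the miR-378 family is encoded in a gene for a regulator of mitochondrial metabolism. miR-133b was at place 14 and miR-206 at place 36. miR-378d and miR-378b also had the diet pattern of miR-1 in Holstein-Friesian steers, with log2 differences of 0.82 (adjusted p = 1.62e-05) and 0.74 (adjusted p = 1.68e-05), and miR-30c rose by 0.42 (adjusted p = 0.00238). With total-count scaling these were 0.48 (adjusted p = 0.0292), 0.39 (adjusted p = 0.0571) and 0.09 (adjusted p = 0.635). With TMM factors 24.2% of all tested miRNAs were called by diet in Holstein-Friesian steers, and miR-133a was not called. The diet value of miR-1388-5p is not reported here.

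The miRNAs most like miR-206 were less close: miR-11977 (r = 0.504), miR-379 (0.495), miR-24-3p (0.489), miR-10a (0.44) and miR-1 (0.417). miR-379 belongs to the imprinted DLK1-DIO3 cluster, and miR-24-3p is known to favour muscle differentiation. miR-499, at place 6 (r = 0.415), was the myosin-encoded miRNA closest to miR-206, while miR-133b was at place 205. By breed miR-11977 was higher in Holstein-Friesian steers by 0.69 (adjusted p = 0.00293) and miR-24-3p by 0.32 (adjusted p = 0.00503), and both kept that side of the threshold under total-count, RLE and upper-quartile scaling. miR-379 was at 0.33 (adjusted p = 0.0547) and miR-10a at 0.25 (adjusted p = 0.225).

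No other myomiR passed for diet or was called higher in Holstein-Friesian steers. Of 6 tested (miR-133a, miR-133b, miR-208a, miR-208b, miR-499 and miR-486), 0 passed for diet in either breed or on average, and 0 for RFI. With total-count scaling 2 of 6 were lower on concentrate on average. miR-133a was at -0.26 in Charolais and 0.14 in Holstein-Friesian steers by diet, beside 0.17 and 0.78 for miR-1. By breed on average 1 of 6 passed, where 21.7% of all tested miRNAs did: miR-486, a miRNA of muscle and red blood cells, was lower in Holstein-Friesian steers (-0.46 ± 0.10 SE, adjusted p = 0.000683). On grass, where 29.9% of all passed, 2 of 6 did, miR-486 (-0.57, adjusted p = 0.00156) and miR-133a (-0.43 ± 0.15 SE, adjusted p = 0.0175), and on concentrate 0 of 6. miR-133a on grass was no longer called with total-count scaling (-0.21, adjusted p = 0.38) or upper-quartile scaling (-0.32, adjusted p = 0.097), and miR-486 was called under both. The median of the 6 by breed was -0.23, against -0.02 over all 318, while miR-206 was at 0.89.

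Of 18 miRNAs listed for myoblast differentiation 16 were tested. By breed 3 of 16 were higher in Holstein-Friesian steers (miR-24-3p, miR-27a-3p and miR-27b) and 2 lower (miR-29a and miR-29c), beside 21.7% of all tested miRNAs called, with a median of 0.01 against -0.02 over all. By diet 2 of 16 were higher on concentrate (miR-29b and miR-29c) and 5 lower (miR-128, miR-181a, miR-181b, miR-27b and miR-424-5p), beside 34% of all called, with a median of -0.14 against 0.01. Of the most abundant members, miR-27b, which restrains the satellite-cell factor Pax3, was at 0.17 by breed (adjusted p = 0.0262) and -0.17 by diet (adjusted p = 0.0194). miR-26a was at -0.17 by breed (adjusted p = 0.177) and -0.22 by diet (adjusted p = 0.0558), and miR-378 at -0.20 (adjusted p = 0.0847) and -0.03 (adjusted p = 0.815). With total-count scaling the counts were 4 higher and 0 lower by breed, and 0 higher and 12 lower by diet.

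Of 10 miRNAs listed for satellite cell quiescence and proliferation 9 were tested. By breed 4 of 9 were higher in Holstein-Friesian steers (miR-155, miR-222, miR-23a and miR-31) and 0 lower, beside 21.7% of all tested miRNAs called in either direction, with a median of 0.29 against -0.02 over all. On grass, where 29.9% of all were called, 5 of 9 were higher, with miR-199a-3p added, and the median was 0.52 against 0.01. On concentrate 0 of 9 passed. The levels of the 4 called on average were unlike: miR-23a averaged 419 CPM, miR-155 15.0, miR-222 6.77 and miR-31 0.673. miR-31 was at 0 in 3 libraries and had at most 23 counts. miR-23a, one of the most abundant, was at 0.37 on average (adjusted p = 0.0073) and miR-125b at -0.04 (adjusted p = 0.824). By diet, where 34% of all were called, 1 of 9 was higher on concentrate (miR-221) and 1 lower (miR-497). With total-count scaling 4 of 9 were higher by breed on average and 5 on grass, and by diet 0 were higher and 4 lower.

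Markers of other cell types in the muscle sample moved with the same factors. Over all tested miRNAs the share called was 21.7% by breed on average and 29.9% on grass, and by diet 34% on average, 20.8% in Charolais and 24.2% in Holstein-Friesian steers. In whole tissue, fewer cells of a type and less of a miRNA per cell cannot be told apart. By breed 3 of 5 smooth muscle and fibroblast miRNAs were higher in Holstein-Friesian steers (miR-143, miR-199a-5p and miR-21-5p), and on grass 4 of 5, with miR-214 added. Their summed level ran from 16543 to 40291 CPM in Charolais (median 27158) and from 16221 to 116580 in Holstein-Friesian libraries (median 31593). Of the leukocyte list 1 of 5 was higher by breed (miR-146a) and of the erythrocyte and endothelium lists 0 of 2 each. On grass 1 of 2 endothelium miRNAs was higher (miR-126-3p, 0.34, adjusted p = 0.00901). Of the liver list miR-885 was lower in Holstein-Friesian steers (-0.61 on average, adjusted p = 0.00215). By diet in Holstein-Friesian steers, where miR-1 rose, 2 of 5 smooth muscle and fibroblast miRNAs were lower on concentrate (miR-21-5p, -0.80, adjusted p = 8.91e-05, and miR-214). Their summed level there ran from 16221 to 116580 CPM on grass (median 31701) and from 17150 to 43034 on concentrate (median 31273). With total-count scaling 4 of 5 were lower on concentrate in this breed and 4 of 5 were higher by breed.

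Blood markers moved by diet. Both erythrocyte miRNAs were higher on concentrate on average, miR-451 by 1.30 (adjusted p = 0.00526) and miR-144 by 1.09 (adjusted p = 0.0181), with a summed level of 300.2 to 11353 CPM on grass (median 2321) and 680 to 49568 on concentrate (median 4991). They passed in Charolais steers (1.76 and 1.68) and missed the threshold in Holstein-Friesian steers, at 0.84 (adjusted p = 0.239) and 0.51 (adjusted p = 0.511). Over all tested miRNAs 34% were called by diet on average, 20.8% in Charolais and 24.2% in Holstein-Friesian steers. Of 5 leukocyte miRNAs 4 were higher on concentrate on average, 3 in Charolais and 1 (miR-150) in Holstein-Friesian steers. Their summed level ran from 201 to 1286 CPM on grass (median 496) and from 319 to 2509 on concentrate (median 629). Of the liver list miR-192 and miR-885, 2 of 3, were higher on concentrate in Holstein-Friesian steers, the 3 summing to 367 to 600 CPM on grass and 434 to 726 on concentrate, while the defining miR-122 was near 0. With total-count scaling none of these erythrocyte, leukocyte or liver calls by diet was kept (0 of 2, 0 of 5 and 0 of 2 tested), and the values of miR-451 and miR-144 on average were 0.95 (adjusted p = 0.0604) and 0.72 (adjusted p = 0.162). For the epithelium list 1 of 5 and for the neuron list 1 of 3 were tested, and 0 passed by breed or diet. The part of these cell types in the differences of miR-1 and miR-206 was not tested.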

How the data were processed

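miRNAs were sequenced from skeletal muscle in 64 libraries. The labels' protocols name the Qiagen RNeasy Plus Universal kit for the RNA and the Illumina TruSeq stranded RNA kit for the libraries. The submitters' processing notes list FastQC 0.11.8, cutadapt 2.6, R 3.4, edgeR 3.5 and the build ARS-UCD 1.2. The aligner, the counter and the annotation (not given in the sources used here) decide how reads of copied genes were shared out. Estimated counts are the unit of the table that the authors deposited; they were not normalized, and were rounded here before testing. miR-2285b, with empty cells, was left out. Mature sequences were not used here.

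The fit was edgeR 4.0.16 (R 4.3.3) with TMM factors, filterByExpr over 8 groups (318 miRNAs kept) and robust quasi-likelihood dispersions. Means of the 8 groups left 56 degrees of freedom for the residuals, 14 contrasts were tested, and a miRNA was called where its Benjamini-Hochberg adjusted p in the contrast was under 0.05. It was tested on simulated data. Alternatives used other scalings and filters, DESeq2 1.42.0, limma 3.58.1, blocks for animal and left-out libraries. Correlations used log2 CPM (prior count 2) with permutation tests (scipy 1.17.1). Counting error was taken as that of a Poisson count and covers counting only. The members and lists were chosen with earlier results of these data known. Besides both members, the text names the other myomiRs, the 5 tested miRNAs closest to each member and the 3 most abundant of each list. Further names were chosen after their values were seen, among those called.

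Replicates were separate steers. The labels' animal numbers show which libraries pair. Across miRNAs, deviations from group means correlated within the 5 animals at 0.165, 0.398, 0.599, 0.288 and -0.111, the last in the Holstein-Friesian steer. No correlations between different animals were set beside these values, so they do not test the pairing.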

Additional observations from a re-analysis of the deposited data

Results flagged for a closer look

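In 24 checks of groups of 8 libraries, 2 highest values lay far from the rest, and chance flags about 1 in 20 groups. miR-206 was at 31.2 CPM in high-RFI Holstein-Friesian grass replicate 5, with the nearest library at 18.9, a gap of 0.527 of the group's range and just past the critical value. It was at 21.2 CPM in low-RFI Charolais concentrate replicate 8, with the nearest at 10.3, a gap of 0.655 of the range. The breed difference of miR-1 on concentrate minus that on grass, 0.61 on the log2 scale, passed the test of the difference between diets (edgeR, adjusted p = 0.0377), but the call was lost in 7 of 11 alternatives and on leaving out any 1 of 24 of the 64 libraries.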

How the results depend on the processing

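Of the main values, the breed difference of miR-206 on average and on grass and the diet difference of miR-1 in Holstein-Friesian steers kept their direction and passed in every alternative run. The breed difference of miR-206 on concentrate lost its call in 1 of 12, at 0.85 (adjusted p = 0.0764) without the concentrate libraries of the 5 repeated animals. The breed difference of miR-1 on concentrate minus grass lost its call in 7 of 11, each of which is given below. Values near 0 changed sign easily, and the causes were not tested. Depth limited miR-206 more than miR-1.

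With total-count scaling 50 miRNAs were called by breed on grass, 2 on concentrate and 40 on average, 42 by diet in Charolais, and 1 for the breed difference on concentrate minus grass. On that scale miR-1 was at 0.21 for diet on average, 0.47 for the breed difference on concentrate minus grass, -0.020 for diet in Charolais, -0.22 for the RFI difference between breeds and 0.023 for that between diets, and miR-206 was at -0.030 for the breed difference on concentrate minus grass. With RLE size factors miR-206 was at 0.40 for diet on average and miR-1 at 0.54 for the breed difference on concentrate minus grass. With DESeq2 these were 0.40 and 0.54. Upper-quartile scaling gave miR-1 0.51 for the latter and 0.17 for RFI in Holstein-Friesian steers on concentrate, with 5 miRNAs called there and 2 for the RFI difference between breeds. With limma-voom miR-1 was at -0.33 for breed on grass, and 3 miRNAs were called by breed on concentrate. With no filter miR-1 was at 0.57 for the breed difference on concentrate minus grass. With a mean of at least 10 CPM miR-206 was at 0.39 for diet on average and miR-1 at 0.027 for the RFI difference between diets, and 2 miRNAs were called by breed on concentrate, 40 by diet in Charolais, 51 in Holstein-Friesian steers and 69 on average.

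Pairing was modelled with a replicate block. As a random block, animal gave miR-1 -0.32 for breed on grass and -0.0061 for the RFI difference between breeds, miR-206 0.54 for diet in Holstein-Friesian steers and 0.37 on average, and 3 calls by breed on concentrate. Fixed block terms gave miR-1 -0.022 for the RFI difference between breeds and 0.00065 for that between diets. Without the concentrate libraries of the 5 animals miR-206 was at 0.43 for diet on average, and miR-1 at 0.57 for the breed difference on concentrate minus grass, -0.15 for the RFI difference between breeds and 0.055 for that between diets, with 0 calls by breed on concentrate, 2 for RFI in Holstein-Friesian steers on concentrate and 5 for the breed difference on concentrate minus grass. Without the 3 libraries with TMM factors far from 1, an alternative chosen after seeing the data, miR-1 was at 0.0016 for RFI in Charolais steers on grass, -0.00034 for breed on average, 0.54 for the breed difference on concentrate minus grass and -0.014 for the RFI difference between breeds, and miR-206 at -0.024 for RFI in Holstein-Friesian steers on grass.

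Leaving out each library in turn, miR-1 ran from -0.10 to 0.018 for RFI in Charolais steers on grass, -0.14 to 0.018 for RFI in Holstein-Friesian steers on concentrate, -0.35 to -0.25 for breed on grass (8 of 64 changed the call), -0.023 to 0.033 for breed on average, 0.53 to 0.68 for the breed difference on concentrate minus grass, -0.0029 to 0.12 for the RFI difference between breeds and -0.13 to 0.029 for that between diets. miR-206 ran from -0.083 to 0.37 for RFI in Holstein-Friesian steers on grass, 0.33 to 0.57 for diet in Holstein-Friesian steers (called without low-RFI grass replicate 3 or high-RFI grass replicate 5), 0.30 to 0.43 for diet on average (15 of 64 changed the call) and -0.10 to 0.20 for the RFI difference between diets. Calls ran from 0 to 1 for RFI in Holstein-Friesian steers on grass, 0 to 2 on concentrate, 3 to 8 by breed on concentrate, 41 to 76 by diet in Charolais (41 without high-RFI concentrate replicate 3), 8 to 27 for the breed difference on concentrate minus grass and 0 to 1 for the RFI difference between breeds.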

Other observations

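miR-133c, a further name of the miR-133 family in the table, averaged 0.00287 CPM and was at 0 in 63 of 64 libraries.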
